A study of Mus musculus with 6 samples.

Results

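Prostaglandins and leukotrienes are lipid signals made from arachidonic acid, and the 10 genes described here encode enzymes, an accessory protein and a receptor of that pathway. They were chosen by name (Ptgs1, Ptgs2, Ptges, Ptges2, Ptges3, Ptgds, Hpgd, Ptger4, Alox5ap and Pla2g4a), each had a row in the table of 53465 genes, and no measured value entered the choice. Hippocampal RNA from the right side of male C57BL/6J mice was sequenced after transient middle cerebral artery occlusion (tMCAO, 3 libraries) and in the Sham group (3 libraries). For tMCAO, a silicone-coated filament was passed into the right internal carotid artery under isoflurane and withdrawn after 50 min, so the sampled side is the occluded one. Both groups had saline perfusion under chloral hydrate before the tissue was taken, and mRNA was captured on oligo-dT beads. The labels state neither the age of the mice, nor the time between occlusion and dissection, nor that each library came from its own animal. The p-values thus refer to the spread between these libraries, which may be technical.

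A phospholipase first releases arachidonic acid from membranes. The cyclooxygenases Ptgs1 and Ptgs2 convert it to prostaglandin H2, from which terminal synthases make prostaglandin E2, prostaglandin D2 and related prostanoids that act on G protein-coupled receptors. In a separate branch, 5-lipoxygenase, which works with the membrane protein encoded by Alox5ap, makes leukotrienes. In the brain Ptgs2 is known as an inducible gene of neurons, Ptgs1 and Alox5ap are known from microglia, and Ptgds from meninges, choroid plexus and oligodendrocytes.

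Levels are FPKM (reads scaled by exon length and by library size) as the authors deposited them. Recovered reads assigned to genes ranged from 57796476 to 66157220 per tMCAO library and from 39026996 to 46277569 per Sham library, and a member had between 112 and 62956 reads in a library. In tMCAO 3 and Sham 2 the markers went against the hippocampal label. The summed FPKM of 5 striatal neuron markers (Drd1, Drd2, Adora2a, Ppp1r1b, Rgs9) was 252 in tMCAO 3 and 40.6 to 53.1 in the other tMCAO libraries, and 256 in Sham 2 against 50.3 to 57.8 in the other Sham libraries. The sum of 5 hippocampal neuron markers, chosen after the data were seen, was 9.01 in tMCAO 3 and 34.2 to 37.4 in the other tMCAO libraries, and 11.3 in Sham 2 against 30.5 to 30.7 in the other Sham libraries. The choroid plexus markers followed the same split, led by Ttr, which was at 6.01 FPKM in tMCAO 3 and 20.0 FPKM in Sham 2, and at 343 to 706 FPKM elsewhere. Calls, fold changes and ratios are therefore also given without these 2 libraries where the text turns on them.

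**Figure D1:**
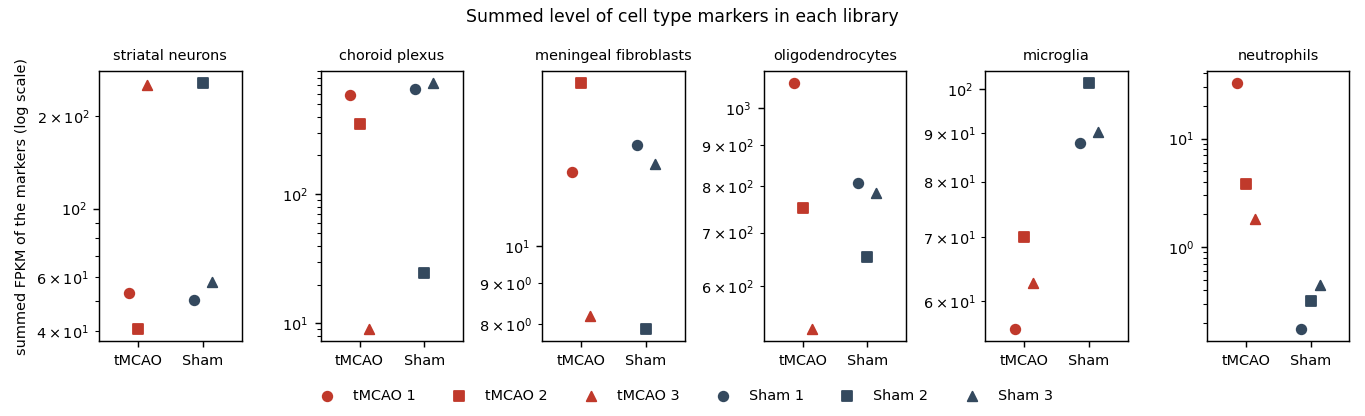
Summed FPKM (log scale) of marker genes of 6 cell types in each library, tMCAO left and Sham right, with the libraries of each group as circle (1), square (2) and triangle (3). tMCAO 3 and Sham 2 are high for striatal and low for choroid plexus markers, the microglial sum is lower in each tMCAO library (56.1 to 70.0) than in each Sham library (87.8 to 101), and the neutrophil sum reaches 32.5 in tMCAO 1.

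Of the 10 members, Ptgs2 and Ptges rose after tMCAO and 8 did not pass the test (limma on log2(FPKM + 1), Benjamini-Hochberg adjusted p below 0.05 over 17561 genes). Over all tested genes 16.2% were called in either direction, 8.93% higher and 7.28% lower, so 2 of 10 is near the background. In bulk tissue, fewer cells of a type and less RNA per cell cannot be told apart. No member was called lower. At an unadjusted limma p below 0.05 there were 3 of 10 members, all of them higher in tMCAO. Over all tested genes, 6317 of 17561 were below it in either direction. The median log2 fold change of the members was 0.15, beside 0.00 over all tested genes. The 3 tMCAO libraries did not overlap the 3 Sham libraries in 4 members (Ptgs2, Ptges, Ptges2 and Ptges3), where 43.4% of all tested genes did not overlap. The exact permutation test on single genes cannot give p below 0.10 with 3 libraries against 3.

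**Figure D2:**
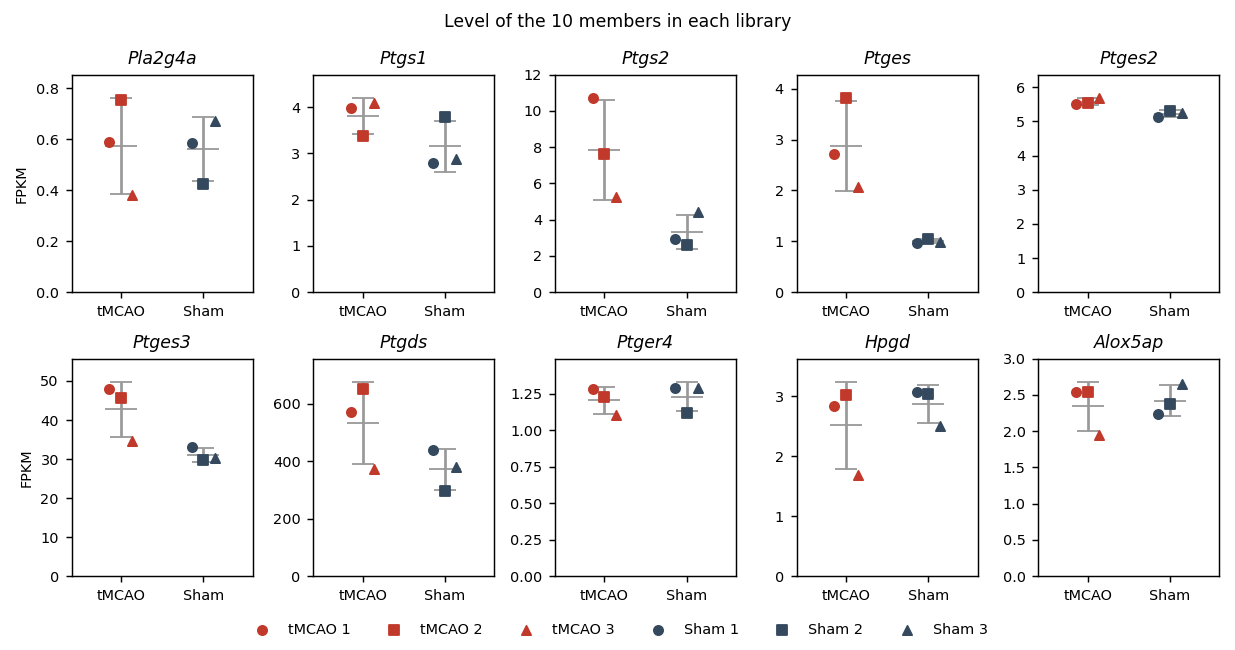
FPKM of the 10 members in each library on axes that start at 0, tMCAO left and Sham right, with the group mean and SD (n = 3) in grey. Ptgs2 and Ptges lie higher in every tMCAO library than in every Sham library, while Pla2g4a, Ptger4, Hpgd and Alox5ap overlap between groups.

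Pla2g4a encodes cytosolic phospholipase A2 alpha, which frees arachidonic acid inside the cell. It (ENSMUSG00000056220) had the lowest level of the members, with 0.591, 0.754 and 0.380 FPKM in tMCAO 1, 2 and 3, against 0.587, 0.424 and 0.672 FPKM in Sham 1, 2 and 3. The groups overlapped, and the lowest value of each group was that of the library with striatal markers. Its log2 fold change was 0.01 (95% interval -0.27 to 0.29, limma adjusted p = 0.96), and 0.04 without tMCAO 3 and Sham 2 (limma adjusted p = 0.83). Pla2g4a and Ptgs2 lie near each other on chromosome 1, with 138740 bases between Pla2g4a (149829618 to 149961290, minus strand) and Ptgs2 (150100031 to 150108227, plus strand) in GENCODE M21 on mm10. Genes lying between them were not looked for. Of this pair, Ptgs2 was called and Pla2g4a was not.

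Ptgs2 encodes cyclooxygenase 2, the inducible enzyme and the target of selective COX-2 inhibitors. The gene (ENSMUSG00000032487, 4580 exon bases) shares no exon with another annotated gene. It was at 10.7, 7.63 and 5.23 FPKM in tMCAO 1, 2 and 3 (2810, 2044 and 1519 reads), against 2.92, 2.63 and 4.40 FPKM in Sham 1, 2 and 3 (527, 497 and 924 reads). The groups did not overlap, but tMCAO 3 and Sham 3 lay close together. The mean was 7.86 ± 2.75 FPKM in tMCAO and 3.32 ± 0.951 FPKM in Sham (SD, n = 3 each), 2.37-fold higher in tMCAO. The log2 fold change on the FPKM + 1 scale was 1.01 (SE 0.25, limma adjusted p = 0.039), and the exact two-sided permutation test gave p = 0.10, the smallest it can give. Without tMCAO 3 and Sham 2 the value was 1.13 (limma adjusted p = 0.036). The call was lost when any single library other than tMCAO 3 was left out (limma adjusted p 0.079 to 0.12) and with voom on recovered reads (adjusted p = 0.051).

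Markers that could bear on the Ptgs2 level were read beside it. The 6 neuronal activity genes (Fos, Npas4, Arc, Egr1, Nr4a1, Junb), which are induced in firing neurons, summed to 165, 140 and 86.6 FPKM in tMCAO 1, 2 and 3, against 98.7, 156 and 154 FPKM in Sham 1, 2 and 3. These sums overlapped between groups, and the genes in them did not move together from Sham to tMCAO. Fos was at 37.4, 19.5 and 9.35 FPKM in tMCAO 1, 2 and 3, against 4.84, 9.23 and 11.3 FPKM in Sham 1, 2 and 3, with the same order of tMCAO libraries as Ptgs2. Npas4 was at 10.8, 5.83 and 1.58 FPKM in tMCAO, against 5.51, 16.1 and 14.7 FPKM in Sham. That order of tMCAO libraries was shared by Npas4, Egr1, Nr4a1 and Junb, with Nr4a1 only from 17.8 to 17.1 FPKM. Arc departed from it, highest in tMCAO 2 at 43.1 FPKM. None of the 6 was called by limma. Neutrophil markers (7 genes, 2 tested, neither called) summed to 32.5, 3.84 and 1.80 FPKM in tMCAO 1, 2 and 3, against 0.176, 0.320 and 0.443 FPKM in Sham 1, 2 and 3. Of these, Ly6g was at 0 in every Sham library and in tMCAO 2, and Cxcr2 at 0 in every Sham library. Their part in the Ptgs2 result was not tested.

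The genes with the profile most like that of Ptgs2 over the 6 libraries were Cebpb, Snhg5, Rps25-ps1, Plat and Steap4. Predicted gene models and genes under clone names were left out of this ranking. Likeness was the mean absolute difference between log2(FPKM + 1) values centred on each gene's mean, and it ran from 0.115 for Cebpb to 0.138 for Steap4. Cebpb, which encodes the transcription factor C/EBP beta, was at 12.7, 9.85 and 5.93 FPKM in tMCAO 1, 2 and 3, against 3.15, 2.74 and 4.03 FPKM in Sham 1, 2 and 3. It had the same order of libraries as Ptgs2, with tMCAO 1 highest and Sham 2 lowest, and was picked for its likeness over these libraries. Plat, which encodes tissue plasminogen activator, was at 15.6, 10.8 and 9.81 FPKM in tMCAO, against 4.91, 4.35 and 5.15 FPKM in Sham.

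The bases upstream of the called members are shown so that letters named as binding forms can be read in place. Both windows are the 250 bases before the start of the gene in RefSeq (build GRCm38.p6), written 5′ to 3′ on the strand of the gene. RefSeq starts Ptges inside the longer span that GENCODE M21 gives the gene. The Ptgs2 window is chr1:150099781-150100030 (plus strand), with the C/EBP form TTGCNNAA in capitals. The Ptges window is chr2:30903298-30903547 (minus strand), with the GC box GGGCGG in capitals.
Ptgs2: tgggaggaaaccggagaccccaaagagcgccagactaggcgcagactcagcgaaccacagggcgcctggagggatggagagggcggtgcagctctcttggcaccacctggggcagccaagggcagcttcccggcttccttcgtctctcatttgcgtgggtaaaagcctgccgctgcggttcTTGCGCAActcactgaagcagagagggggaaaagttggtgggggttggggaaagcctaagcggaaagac
Ptges: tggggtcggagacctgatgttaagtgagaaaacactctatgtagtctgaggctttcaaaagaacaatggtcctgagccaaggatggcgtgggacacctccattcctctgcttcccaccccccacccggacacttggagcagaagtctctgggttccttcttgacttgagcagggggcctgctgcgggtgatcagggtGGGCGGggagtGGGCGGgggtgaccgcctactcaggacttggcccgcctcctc
Both strands were searched for 5 forms in the 250-base windows of 9 members with a RefSeq promoter and of 32817 promoters. These 32817 windows, called all windows below, leave out the promoters of a single chromosome. TTGCNNAA stood in the Ptgs2 window alone among these members, 69 bases before the start, and in 9.57% of all windows. Its palindrome TTGCGCAA stood in 54 of the 32817 windows (0.165%). These are the exact letters of the Ptgs2 window itself, so their low share tests nothing. A part of Cebpb in the Ptgs2 level was not tested. GGGCGG was found in Ptgs2, Ptges, Ptges3, Hpgd and Ptger4 and in 32.7% of all windows. The open NF-kB form, GGG and CC with any 5 bases between them, was found in 5 members and in 45.8% of all windows, and in Ptges it overlaps the GC box nearest the start. The short CRE form CGTCA was in no member window and in 17.7% of all, and TATAAA was in the second window of Pla2g4a and in 12.4% of all. Bases after the annotated start were not searched, so a missing form is missing from these windows only. A match describes letters and is not a measured site.

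Ptgs1 encodes cyclooxygenase 1, the constitutive enzyme (ENSMUSG00000047250, chr2:36230426-36252272, plus strand). It had 3.97, 3.37 and 4.09 FPKM in tMCAO 1, 2 and 3, against 2.78, 3.78 and 2.89 FPKM in Sham 1, 2 and 3. Sham 2 lay among the tMCAO libraries, so the groups overlapped. On the log2 scale the difference was 0.22 (95% interval -0.06 to 0.50, limma adjusted p = 0.22), and 0.28 without tMCAO 3 and Sham 2 (limma adjusted p = 0.13). Of the 7 microglial markers, read beside Ptgs1, 5 fell (Cx3cr1, Tmem119, P2ry12, Siglech and Aif1) and none rose. Their sum was 56.1 to 70.0 FPKM in tMCAO and 87.8 to 101 FPKM in Sham, and their part in the Ptgs1 value was not tested.

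The balance of the 2 cyclooxygenases was read as a log2 ratio of FPKM within each library, with 0.1 FPKM added to each gene. Ptgs2 over Ptgs1 was 1.41, 1.15 and 0.34 in tMCAO 1, 2 and 3, against 0.07, -0.51 and 0.59 in Sham 1, 2 and 3. Sham 3 lay above tMCAO 3, so 8 of the 9 differences between a tMCAO and a Sham library were positive. The mean difference in log2 ratio was 0.92 (lowest -0.25, highest 1.92 over the 9), with p = 0.20 in the exact two-sided permutation test and 0.20 adjusted over 3 ratios. With 3 libraries against 3 the test could not pass 0.05. Without tMCAO 3 and Sham 2, a choice made after the data were seen, the groups lay apart and the difference was 0.95.

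Ptges encodes microsomal prostaglandin E synthase 1, the inducible terminal synthase that is known to work with cyclooxygenase 2. The gene (ENSMUSG00000050737, chr2:30889471-30929863, minus strand) has 3931 exon bases, none shared with another annotated gene. It was at 2.72, 3.82 and 2.06 FPKM in tMCAO 1, 2 and 3 (613, 879 and 515 reads), against 0.968, 1.05 and 0.993 FPKM in Sham 1, 2 and 3 (150, 171 and 179 reads). The Sham libraries were close to each other, and each tMCAO library lay above all of them. The mean was 2.87 ± 0.888 FPKM in tMCAO and 1.005 ± 0.044 FPKM in Sham (SD, n = 3 each), 2.86-fold higher in tMCAO. On the FPKM + 1 scale the log2 fold change was 0.92 (SE 0.16, limma adjusted p = 0.018, exact permutation p = 0.10), and 1.10 without tMCAO 3 and Sham 2 (limma adjusted p = 0.022). Leaving out Sham 1, 2 or 3 ended the call (limma adjusted p 0.076, 0.060 and 0.080), while leaving out a tMCAO library did not (0.0076 to 0.047). This contrast was not particular to Ptges. Over all genes, 124, 415 and 75 were called without Sham 1, 2 and 3, and 1511 to 3900 without a tMCAO library.

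The other 2 prostaglandin E synthases did not pass. Ptges2, a membrane-associated synthase (chr2:32395896-32405772, plus strand), was at 5.50, 5.52 and 5.69 FPKM in tMCAO 1, 2 and 3, against 5.11, 5.31 and 5.25 FPKM in Sham 1, 2 and 3. Its groups did not overlap, yet the difference was small, with a log2 fold change of 0.08 (95% interval -0.08 to 0.23, limma adjusted p = 0.43). Ptges3, the cytosolic synthase also known as the Hsp90 co-chaperone p23 (chr10:128058954-128077272, plus strand), was at 47.9, 45.6 and 34.7 FPKM in tMCAO 1, 2 and 3, against 33.2, 29.7 and 30.3 FPKM in Sham 1, 2 and 3. tMCAO 3 lay just above Sham 1, and the other 2 tMCAO libraries lay well above. The log2 fold change of Ptges3 was 0.44 (SE 0.13, limma adjusted p = 0.057). It passed without tMCAO 3 and Sham 2 (0.55, limma adjusted p = 0.023), without tMCAO 3 alone (0.58, limma adjusted p = 0.0084) and with library weights (limma adjusted p = 0.0088). With 1 library left out, Ptges3 passed in only 1 of 6 fits (limma adjusted p up to 0.17). With all libraries kept, it passed in only 1 of 10 alternatives (limma adjusted p up to 0.094).

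Within a library Ptges stayed below Ptges2, but the distance differed between groups. The log2 ratio of Ptges over Ptges2 was -0.99, -0.52 and -1.42 in tMCAO 1, 2 and 3, against -2.29, -2.23 and -2.29 in Sham 1, 2 and 3. All 9 differences between a tMCAO and a Sham library were positive, from 0.81 to 1.77, with a mean of 1.29, and of 1.54 without tMCAO 3 and Sham 2. The exact permutation test gave p = 0.10, the smallest possible, and 0.15 adjusted over 3 ratios.

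**Figure D3:**
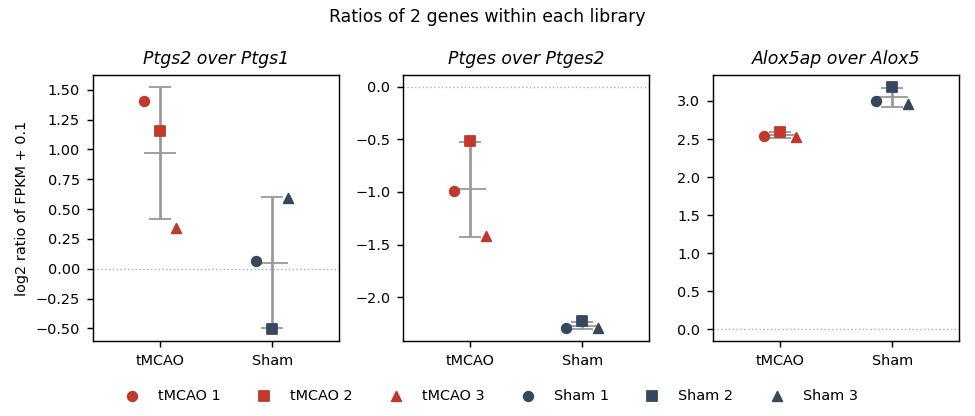
Log2 ratio of 2 genes' FPKM (0.1 added to each) in each library, tMCAO left and Sham right, with the group mean and SD (n = 3) in grey. The groups overlap for Ptgs2 over Ptgs1, and lie apart for Ptges over Ptges2 (higher in tMCAO) and for Alox5ap over Alox5 (lower in tMCAO).

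Ptgds, which encodes lipocalin-type prostaglandin D synthase, was the most abundant member in every library (ENSMUSG00000015090, chr2:25466709-25470046, minus strand). It was at 572, 652 and 375 FPKM in tMCAO 1, 2 and 3, against 440, 298 and 381 FPKM in Sham 1, 2 and 3. tMCAO 3 lay below 2 Sham libraries, and the lowest library of each group was the one with high striatal markers. The mean was 533 ± 143 FPKM in tMCAO and 373 ± 71.5 FPKM in Sham (SD, n = 3 each). This gave a log2 fold change of 0.49 (95% interval -0.06 to 1.05, limma adjusted p = 0.18). It was 0.58 without tMCAO 3 and Sham 2 (limma adjusted p = 0.045), where both tMCAO libraries lay above both Sham libraries. Without tMCAO 3 alone it was 0.73 (limma adjusted p = 0.034), and without Sham 2 alone 0.34 (limma adjusted p = 0.40).

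Markers of the cells known to make Ptgds were summed in the same libraries. The 6 meningeal fibroblast markers summed to 12.3, 16.0 and 8.19 FPKM in tMCAO 1, 2 and 3, against 13.4, 7.88 and 12.7 FPKM in Sham 1, 2 and 3. The 6 choroid plexus markers summed to 591, 354 and 9.04 FPKM in tMCAO, against 654, 24.7 and 729 FPKM in Sham. The 6 oligodendrocyte markers summed to 1074, 751 and 531 FPKM in tMCAO, against 807, 653 and 785 FPKM in Sham. Like Ptgds, each of the 3 sums was lowest in tMCAO 3 among the tMCAO libraries and in Sham 2 among the Sham libraries. None of the 3 lists had a gene called between groups, the ranges of all 3 sums overlapped, and their part in the Ptgds value was not tested.

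Genes with the profile most like that of Ptgds, by the same ranking, were Pygm, Vamp8, Slc26a4, Pxdc1 and Dab2. Their mean absolute difference ran from 0.068 to 0.097 on the centred log2 scale. Pygm, which encodes glycogen phosphorylase of muscle and astrocytes, was at 19.4, 21.4 and 13.3 FPKM in tMCAO 1, 2 and 3, against 15.02, 10.6 and 14.2 FPKM in Sham 1, 2 and 3. None of the 5 was called (limma adjusted p from 0.097 to 0.22).

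Ptger4 encodes EP4, a prostaglandin E2 receptor that raises cyclic AMP (chr15:5206661-5244187, minus strand). It was at 1.28, 1.23 and 1.10 FPKM in tMCAO 1, 2 and 3, against 1.29, 1.11 and 1.29 FPKM in Sham 1, 2 and 3. The libraries of both groups covered almost the same range. The difference was -0.02 on the log2 scale (95% interval -0.21 to 0.18, limma adjusted p = 0.90). Of its exon length, 16.5% is shared with genes on the opposite strand, and the labels do not say whether counting used the strand.

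Hpgd encodes 15-hydroxyprostaglandin dehydrogenase, which inactivates prostaglandins (chr8:56294585-56321043, plus strand). It was at 2.84, 3.02 and 1.68 FPKM in tMCAO 1, 2 and 3, against 3.07, 3.04 and 2.50 FPKM in Sham 1, 2 and 3. tMCAO 3 was the lowest library and the others overlapped. Its log2 fold change was -0.16 (95% interval -0.55 to 0.23, limma adjusted p = 0.53), and 0.06 without tMCAO 3 and Sham 2 (limma adjusted p = 0.74).

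Alox5ap encodes FLAP, the protein that presents arachidonic acid to 5-lipoxygenase (chr5:149264767-149288153, plus strand). It was at 2.53, 2.54 and 1.95 FPKM in tMCAO 1, 2 and 3, against 2.23, 2.37 and 2.66 FPKM in Sham 1, 2 and 3. The groups overlapped. The log2 fold change was -0.04 (95% interval -0.28 to 0.21, limma adjusted p = 0.83), and 13.3% of its exon length is shared with Gm19719 on the opposite strand. Alox5, the lipoxygenase itself, lay below the expression filter at 0.353, 0.337 and 0.257 FPKM in tMCAO 1, 2 and 3 (83, 81 and 67 reads), against 0.191, 0.171 and 0.255 FPKM in Sham 1, 2 and 3 (31, 29 and 48 reads). Without a filter its limma adjusted p was 0.15. The log2 ratio of Alox5ap over Alox5 was 2.54, 2.59 and 2.52 in tMCAO 1, 2 and 3, against 3.0003, 3.19 and 2.96 in Sham 1, 2 and 3. All 9 differences between libraries were negative, from -0.66 to -0.36, with a mean of -0.50, and of -0.41 without tMCAO 3 and Sham 2 (for all 6 libraries, exact permutation p = 0.10, 0.15 adjusted over 3 ratios).

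**Figure D4:**
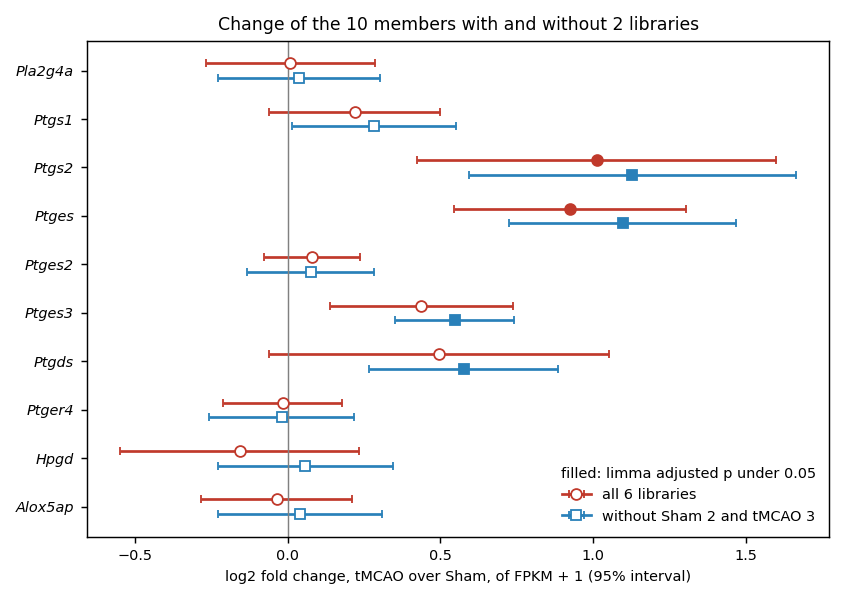
Log2 fold change (tMCAO over Sham, of FPKM + 1) of each member with its 95% interval, with all 6 libraries (circles) and without Sham 2 and tMCAO 3 (squares), filled where the limma adjusted p is below 0.05. Ptgs2 and Ptges are filled in both, Ptges3 and Ptgds only without the 2 libraries.

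The members spanned a wide range of levels. By mean FPKM in tMCAO the order was Ptgds (533), Ptges3 (42.7), Ptgs2 (7.86), Ptges2 (5.57), Ptgs1 (3.81), Ptges (2.87), Hpgd (2.52), Alox5ap (2.34), Ptger4 (1.20) and Pla2g4a (0.575). By mean FPKM in Sham it was Ptgds (373), Ptges3 (31.0), Ptges2 (5.22), Ptgs2 (3.32), Ptgs1 (3.15), Hpgd (2.87), Alox5ap (2.42), Ptger4 (1.23), Ptges (1.005) and Pla2g4a (0.561). Ptgs2 stood above Ptges2 in tMCAO, where their libraries overlapped, and below it in Sham, where they did not. Ptges stood among Ptgs1, Hpgd and Alox5ap in tMCAO, where its libraries overlapped theirs, and below Ptger4 in every Sham library.

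Beside the members, 55 other genes of eicosanoid synthesis, transport and reception were listed. Of these 24 were tested and 31 were not, mostly because they lay below the filter on low FPKM. Among the 24, 3 rose, 1 fell and 20 did not pass the test, 16.7% called beside 16.2% of all tested genes. The median log2 fold change of the 24 was -0.06, and the groups did not overlap in 11 of them (45.8%, beside 43.4% of all tested genes). By role, 1 of 7 phospholipase and arachidonate release genes, 1 of 5 prostanoid synthases and 1 of 7 leukotriene and lipoxygenase enzymes rose, 1 of 3 transport and inactivation genes fell, and neither of 2 prostanoid receptors passed. The 5 leukotriene and lipoxin receptors lay below the filter.

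Pla2g3, a secreted phospholipase A2, was at 3.07, 4.20 and 3.90 FPKM in tMCAO 1, 2 and 3, against 2.01, 2.14 and 2.26 FPKM in Sham 1, 2 and 3 (log2 fold change 0.58, SE 0.11, limma adjusted p = 0.021), with all tMCAO libraries higher. It shares 8.54% of its exon length with Inpp5j on the opposite strand. Prxl2b, a prostamide and prostaglandin F2 alpha synthase, was at 37.0, 35.8 and 39.4 FPKM in tMCAO 1, 2 and 3, against 25.5, 26.6 and 22.3 FPKM in Sham 1, 2 and 3 (log2 fold change 0.57, SE 0.08, limma adjusted p = 0.014). It was high in tMCAO 3 as well, the library in which Ptgs2, Ptges and Ptgds were lowest among the tMCAO libraries. Alox12b, a lipoxygenase known from skin, was at 3.06, 3.54 and 6.08 FPKM in tMCAO 1, 2 and 3, against 1.72, 1.44 and 2.23 FPKM in Sham 1, 2 and 3 (log2 fold change 0.87, SE 0.22, limma adjusted p = 0.040). tMCAO 3 was the highest library there. Abcc4, a transporter that exports prostaglandins from cells, fell to 1.53, 1.71 and 1.78 FPKM in tMCAO 1, 2 and 3, against 2.29, 2.32 and 2.44 FPKM in Sham 1, 2 and 3 (log2 fold change -0.33, SE 0.08, limma adjusted p = 0.037). With 1 library left out, the call held in 3 of 6 fits for Pla2g3, 4 for Prxl2b, 2 for Alox12b and 1 for Abcc4. Without tMCAO 3 and Sham 2 the call held for Prxl2b (0.59, limma adjusted p = 0.024) and was lost for Pla2g3 (0.55, limma adjusted p = 0.064), Alox12b (0.53, limma adjusted p = 0.055) and Abcc4 (-0.36, limma adjusted p = 0.069). Abcc4 was also lost without a filter (limma adjusted p = 0.052), and Alox12b with libraries rescaled to an equal FPKM sum (limma adjusted p = 0.0502).

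**Figure D5:**
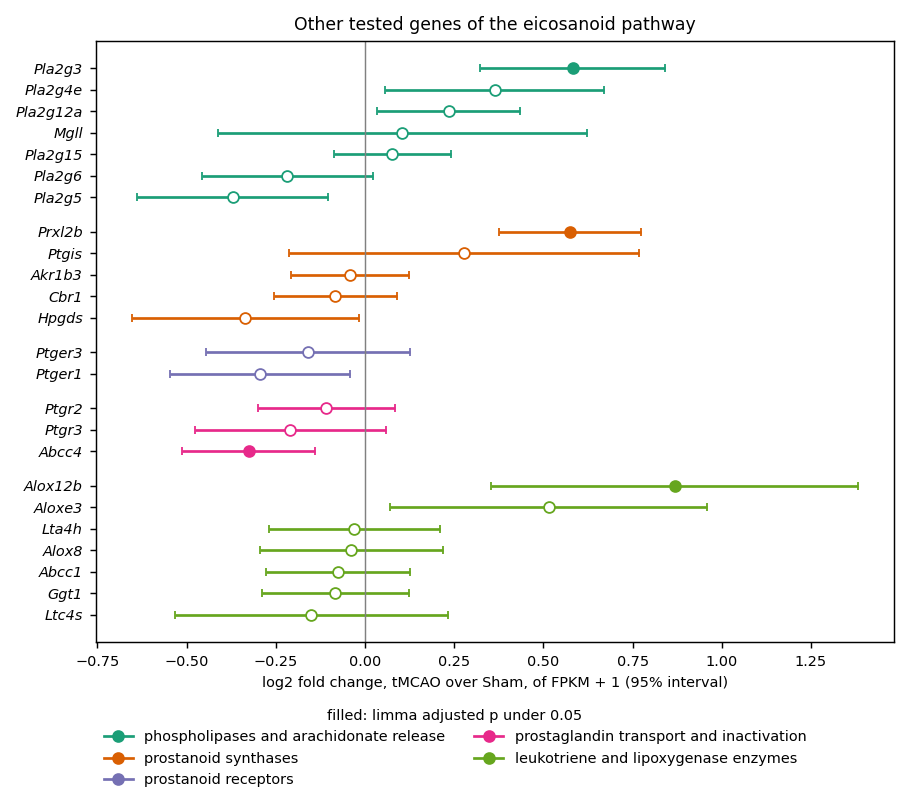
Log2 fold change (tMCAO over Sham, of FPKM + 1) with its 95% interval for the 24 other tested genes of the pathway, grouped by role in colour and filled where the limma adjusted p is below 0.05. Pla2g3, Prxl2b and Alox12b are filled on the higher side and Abcc4 on the lower side.

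Of the genes with the highest median FPKM in their role, several were not called. Mgll, the lipase that releases arachidonic acid from an endocannabinoid, was at 32.7 ± 9.81 FPKM in tMCAO and 29.9 ± 5.87 FPKM in Sham (SD, n = 3 each), and was highest in the library with striatal markers in each group. Cbr1, a carbonyl reductase that can act on prostaglandin E2, was at 32.9 ± 2.37 FPKM in tMCAO and 34.9 ± 0.675 FPKM in Sham. Ptgr3, a prostaglandin reductase listed in the files as Zadh2, had a limma adjusted p of 0.23, and Lta4h, which makes leukotriene B4, one of 0.85.

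Further receptors and enzymes lay below the filter or near it, and Hpgds alone among those named was tested in the filtered fit. Fpr2, a formyl peptide receptor that also binds lipoxin A4, was at 1.39, 0.686 and 0.608 FPKM in tMCAO 1, 2 and 3 (103, 52 and 50 reads), against 0.078, 0.056 and 0.101 FPKM in Sham 1, 2 and 3 (4, 3 and 6 reads). The groups did not overlap, and the fit without a filter, which called 12.9% of 22647 genes, gave a limma adjusted p of 0.023. In the 3 fits without a Sham library, where Fpr2 passed the filter, the limma adjusted p was 0.076 to 0.088. Without tMCAO 3 and Sham 2 it was 0.042. With a mean of 0.486 FPKM over all 6 libraries, Fpr2 passed the filter in these fits only through its high tMCAO values. They are therefore no further support for a difference. Fpr2 is also expressed by neutrophils, whose markers had the same highest library, and their part was not tested. Ptgdr2, Alox12 and Hpgds were chosen after their values were seen. Ptgdr2, a prostaglandin D2 receptor, was at 0.985, 0.401 and 0.310 FPKM in tMCAO 1, 2 and 3, against 0.125, 0.147 and 0.140 FPKM in Sham 1, 2 and 3, with a limma adjusted p of 0.093 without a filter. It shares 39% of its exon length with Ccdc86 on the opposite strand. Alox12, a platelet-type lipoxygenase, was at 0.056, 0.038 and 0.054 FPKM in tMCAO 1, 2 and 3 (13, 9 and 14 reads), against 0.205, 0.231 and 0.192 FPKM in Sham 1, 2 and 3 (33, 39 and 36 reads). On these few reads Alox12 was called lower without a filter (limma adjusted p = 0.021). Hpgds, the prostaglandin D synthase of blood and microglial cells, was at 0.650, 0.825 and 1.27 FPKM in tMCAO 1, 2 and 3, against 1.25, 1.61 and 1.33 FPKM in Sham 1, 2 and 3 (limma adjusted p = 0.12 in the filtered fit, 239 to 516 reads per library).

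The authors' deposited table gives its own comparison, with Sham on top of each fold change: negative values are those higher in tMCAO. An adjusted p below 0.05 was given to 3 of the 10 members in the authors' deposited table, beside 20.2% of its 22647 genes. Ptgs2 had a log2 fold change of -1.24 (adjusted p = 7.7e-05) in the authors' deposited table, Ptges one of -1.51 (adjusted p = 1.31e-08) and Ptges3 one of -0.46 (adjusted p = 0.015). Ptgds had a log2 fold change of -0.52 in the authors' deposited table (adjusted p = 0.068). Of the 48 other pathway genes in the authors' deposited table, 11 had an adjusted p below 0.05, 8 of them higher in tMCAO.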

How the data were processed

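RNA-seq of 3 tMCAO and 3 Sham samples was used. The authors deposited FPKM, values per kilobase of exon scaled by a library factor, and the submitters' processing notes name the build mm10. Of the aligner, the counter and the use of strand, none is stated there. The authors' deposited comparison table adds log2 fold changes and p-values from a test whose name is likewise not stated. Sham columns carry sample titles. For tMCAO the column names show the group but not the sample, and the numbers 1 to 3 are those of the columns.

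Groups were compared on log2(FPKM + 1) by limma 3.58.1 (R 4.3.3) over the 17561 genes of the comparison table with a mean FPKM of at least 0.5, with eBayes (trend), a two-sided test, Benjamini-Hochberg adjustment and a threshold of 0.05. Because of the added 1, changes of low genes are understated. FPKM were whole multiples of 1 read for 36451 of the 36452 genes above 0 (tolerance 0.01 read), which gave reads by the exon length of GENCODE M21. For the 8% of compared genes whose length differed, the least fitting length was taken, so totals are lower limits. Of these steps, the limma fit alone was tested on simulated data.

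Members, gene lists, tests and alternatives were chosen with earlier results of these data known. Named were all members, pathway genes that were called or had the highest median FPKM in their role, and the 5 genes most like Ptgs2 and Ptgds. A gene these rules name and a listed marker are not reported here. Alternatives were other filters (none, or 2 FPKM), a pseudocount of 0.1, voom on the recovered reads, library weights, rescaling to an equal sum, by median ratio or by quantiles, a constant prior variance, the table of all genes, and fits with libraries left out.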

Additional observations from a re-analysis of the deposited data

How the results depend on the processing

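Of the 10 members, 2 were called with all libraries. The count of members was 1 at a mean FPKM of at least 2, where Ptges fell below the filter, and 1 with voom on recovered reads. It was 4 with library weights, which called 4913 of all 17561 genes, against 2847 of 17561 in the main fit. It was also 4 when tMCAO 3 and Sham 2 were both left out, where 2137 of 17553 genes were called. When 1 library was left out it ranged from 0 to 4. It was 0 by limma without Sham 1, Sham 2 or Sham 3. In these fits 124 of 17561, 415 of 17537 and 75 of 17554 genes were called. An unadjusted limma p below 0.05 was given there to 3 or 4 members, beside 4623, 4882 and 4371 of all genes. The count of members stayed at 2 with the other 7 settings. The count of other pathway genes was 4 of 24 tested, against 7 with library weights and 0 to 6 with 1 library left out. It was 5 of 48 tested without a filter, 3 with libraries rescaled to an equal FPKM sum, and 3 without both tMCAO 3 and Sham 2. For Ptgs2, Ptges, Ptges3, Ptgds, Ptges2 and Ptgs1 the direction was the same in each alternative in which they were tested, while Alox5ap, Hpgd, Ptger4 and Pla2g4a, none of which was called, changed sign in 4, 2, 4 and 5 of them. The log2 fold change of Ptgs2 ran from 0.79 to 1.24 and that of Ptges from 0.75 to 1.08 with 1 library left out. Over all tested genes 2847 were called (1569 higher, 1278 lower). The count was 4913 with library weights and 75 to 3900 with 1 library left out, in fits with fewer samples, and the split was 1051 higher and 1599 lower with libraries rescaled to an equal FPKM sum. The cause was not tested. The difference in log2 ratio kept its sign for all 3 ratios with a pseudocount of 1, with each library left out and without both tMCAO 3 and Sham 2. Depth limits genes such as Fpr2, with 3 to 6 reads per Sham library. No paired analysis was possible because the titles number the samples from 1 to 6 without pairing them and the tMCAO columns carry no sample name.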
